A study of Mus musculus with 8 samples.

Results

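TOX, NR4A and NFAT proteins are transcription factors that act in T cell exhaustion, and the transcripts of 8 of them were followed here: Tox, Tox2, Nr4a1, Nr4a2, Nr4a3, Nfatc1, Nfatc2 and Nfatc3. They were taken by symbol from 22609 gene rows, all 8 were found, and all 8 passed the filter on low counts that left 10073 genes. They were chosen by symbol, with the measured CPM values of these libraries and the difference between the 2 subsets already known. For these 8 genes that difference is therefore a description, and no p-value or confidence interval is given for it. The SE printed with each log2 fold change is likewise a description. The counts of the 8 that pass a test are printed beside the share of all genes that pass, and nothing is read from them.

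The libraries came from CD8 T cells of the liver of male C57BL/6J mice aged 6 weeks. Every mouse had been given an agonistic antibody to CD137, a costimulatory receptor, on day 0, 3 and 6 and its liver was collected on day 8, so both groups share this treatment and neither is untreated. The first group held CD11c+ KLRG1+ CD127- cells and the second CD11c- KLRG1+ CD127- cells, 4 libraries each. The sort gate kept live cells positive for CD45, TCRβ and CD8α and negative for CD4, NK1.1 and MHCII. The labels do not say whether the libraries of a group came from separate mice, so the spread between them may be technical, and whether a cell held less of an RNA or fewer cells held it cannot be told apart in bulk RNA.

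Libraries held 5090345 to 7093163 gene reads, and 10482 to 12581 genes had at least 1 read. The labelled cell type showed in Cd8a, at 1085 to 1237 CPM (reads per 1000000 gene reads, scaled by TMM factors) in CD11c+ and 1022 to 1231 CPM in CD11c- libraries, and in Cd3e, at 976 CPM ± 60.0 and 955 ± 60.6 (SD, n = 4 each). Of 4 markers of CD4 T and regulatory T cells, Cd4 was at most 1.56, Cd40lg at most 0.7 and Zbtb7b at most 7.48 CPM in any library. Foxp3 passed the filter, at 3.71 to 10.5 CPM in CD11c+ and 1.86 to 15.3 CPM in CD11c- libraries, and was not called. The part of these 4 markers in the results was not tested. The summed level of 14 dendritic and myeloid cell markers ran from 172 to 758 CPM in CD11c+ and from 160 to 383 CPM in CD11c- libraries, and was highest in CD11c+ replicate 3, where Lyz2 reached 265 CPM. Of these markers 8 passed the filter, all 8 with positive and none with called log2 fold changes, and their part in the results was not tested. Of 6 NK cell markers, whose summed level was 206 to 324 CPM in CD11c+ and 165 to 212 CPM in CD11c- libraries, Eomes made up most (153 to 229.8 CPM and 149 to 198 CPM), a gene that CD8 T cells also express. Klre1 was at 25.3 to 91.4 CPM in CD11c+ and 11.3 to 15.2 CPM in CD11c- libraries, without overlap. It was called higher by DESeq2 and limma voom, which called 22 and 14 of all tested genes higher. Klra8 and Klra4 were at 0 reads in all libraries, and Ncr1 was at most 1.78 CPM. Klrb1c was at 8.99, 0, 0.713 and 3.12 CPM in CD11c+ replicates 1 to 4, against 0.186 to 1.69 CPM in CD11c- libraries, and was under the filter. The part of these markers in the results was not tested.

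When the T cell receptor is engaged, calcium entry activates the phosphatase calcineurin, which strips phosphates from NFAT proteins in the cytoplasm and lets them enter the nucleus. There NFAT works with AP-1 in an effector response, and in mouse models NFAT acting without AP-1 drives genes of exhaustion, the state of T cells under lasting antigen. NR4A receptors, whose genes switch on within the first wave of transcription after stimulation, and TOX, an HMG-box protein, lie downstream of NFAT and shape the chromatin of exhausted CD8 T cells.

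Levels of the TOX genes were lower in CD11c+ cells on average, and those of the NR4A and NFAT genes were not. Tox2 was 2.4-fold lower in CD11c+ than in CD11c- libraries, with no overlap between subsets, and Tox was 1.56-fold lower with overlap. The other 6 genes had log2 fold changes (CD11c+ minus CD11c-) between 0.05 and 0.41, with SE from 0.14 to 0.35. Over the 8 genes, 6 log2 fold changes were positive and 2 negative with a median of 0.10. Of all 10073 tested genes 5207 were positive and 4866 negative, with a median of 0.01. By edgeR's quasi-likelihood test with Benjamini-Hochberg adjustment 0 of the 8 passed the threshold of 0.05, where 0.0496% of all genes did. DESeq2 and limma voom with quality weights each called 1 of them lower, Tox2. DESeq2 called lower 0.144% of the 6947 genes to which it gave an adjusted p, and Nr4a3 was not among those 6947. Limma voom called lower 0.0496% of all 10073 genes.

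**Figure D1:**
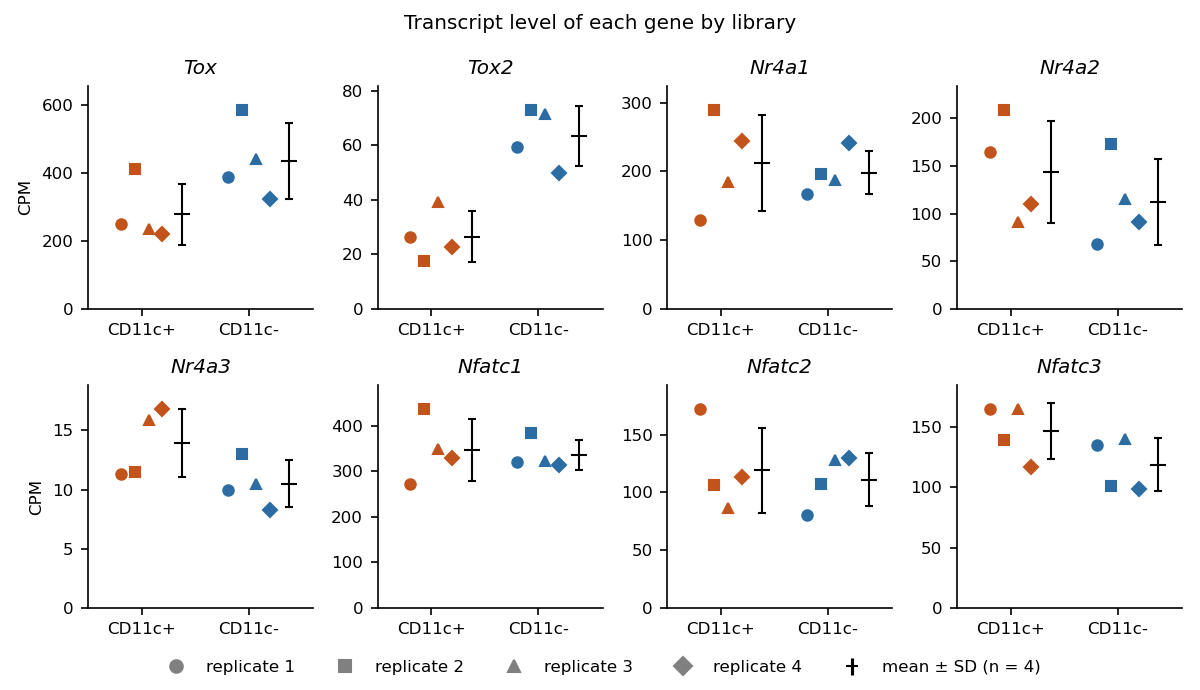
Transcript level of the 8 genes in CPM (y axis, from 0) in the 4 CD11c+ libraries on the left and the 4 CD11c- libraries on the right of each panel, with 1 symbol per replicate number and black bars for the mean ± SD. Tox2 is the panel in which the subsets part, at 17.5 to 39.2 CPM in CD11c+ and 50.0 to 73.1 CPM in CD11c- libraries.

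Tox2 encodes a close relative of TOX, known in mice both from follicular helper T cells and from exhausted CD8 T cells. It was at 26.4, 17.5, 39.2 and 22.8 CPM in CD11c+ replicates 1 to 4, against 59.4, 73.1, 71.5 and 50.0 CPM in CD11c- replicates 1 to 4. That is, the highest CD11c+ library lay below the lowest CD11c- library. That held in 1 of the 8 genes, and in 1.85% of all tested genes. The means were 26.5 CPM ± 9.25 and 63.5 ± 10.9 (SD, n = 4 each), with a log2 fold change of -1.26 (SE 0.26). The raw reads behind these levels were 100 to 220 per CD11c+ library and 284 to 522 per CD11c- library. Without CD11c+ replicate 3, the library richest in myeloid markers and in Tox2 among its subset, the log2 fold change was -1.52.

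Of the 8 genes, 6 had at least 1 transcription start in the RefSeq promoter table (build GRCm38.p6), 12 starts in all, and 5 of them belonged to Tox2. Its most upstream start, shown because Tox2 parted the subsets, has the following 250 bases before it (chr2:163202877-163203126, plus strand). Of these, 75.2% were G or C.

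Tox2: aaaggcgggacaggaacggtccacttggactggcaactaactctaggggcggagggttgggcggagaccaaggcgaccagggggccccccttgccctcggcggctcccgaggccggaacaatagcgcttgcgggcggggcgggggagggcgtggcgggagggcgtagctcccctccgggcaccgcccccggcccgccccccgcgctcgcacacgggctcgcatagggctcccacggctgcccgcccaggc

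Searched on both strands, this window held no AP-1 letters (TGANTCA), no core of the NFAT site (GGAAA), no TGACG, which is part of the cyclic AMP response element, no full element (TGACGTCA, which holds TGACG on each strand) and no NR4A monomer site (AAAGGTCA). The core GGAAA was in 55.6% of 32851 windows of this length, AP-1 in 6.75%, TGACG in 17.8%, TGACGTCA in 1.55% and AAAGGTCA in 1.34%. Among the other 4 Tox2 starts, 2 had 1 match to GGAAA and 1 had 1 match to TGACG. A match or its lack describes the letters of a window and no binding.

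Tox encodes TOX itself, needed in mice for exhausted CD8 T cells to persist. It was at 250.1, 413, 234 and 220.3 CPM in CD11c+ replicates 1 to 4, against 388, 586, 439.8 and 323 CPM in CD11c- replicates 1 to 4. CD11c+ replicate 2 was above CD11c- replicates 1 and 4, and the other 3 CD11c+ libraries were below every CD11c- library. The means were 279 CPM ± 89.9 and 434 ± 112 (SD, n = 4 each), with a log2 fold change of -0.64 (SE 0.22). Replicate 2 held the highest Tox level in both subsets. Leaving out CD11c+ replicate 2 gave -0.90 and leaving out CD11c- replicate 2 gave -0.47.

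Per kilobase of exon (GENCODE M21 protein-coding exons), Tox was at 70.5 ± 22.7 CPM per kb in CD11c+ and 109.6 ± 28.2 in CD11c- libraries, and Tox2 at 8.34 ± 2.92 and 20 ± 3.42 (SD, n = 4 each). On this scale the level of Tox was thus above that of Tox2 in both subsets. Of the relatives, Tox4, an HMG-box protein expressed in many tissues, was at 109 to 152 CPM in CD11c+ and 113 to 134 CPM in CD11c- libraries, with a log2 fold change of 0.08 (SE 0.15). No read of Tox3 was counted in any library.

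**Figure D2:**
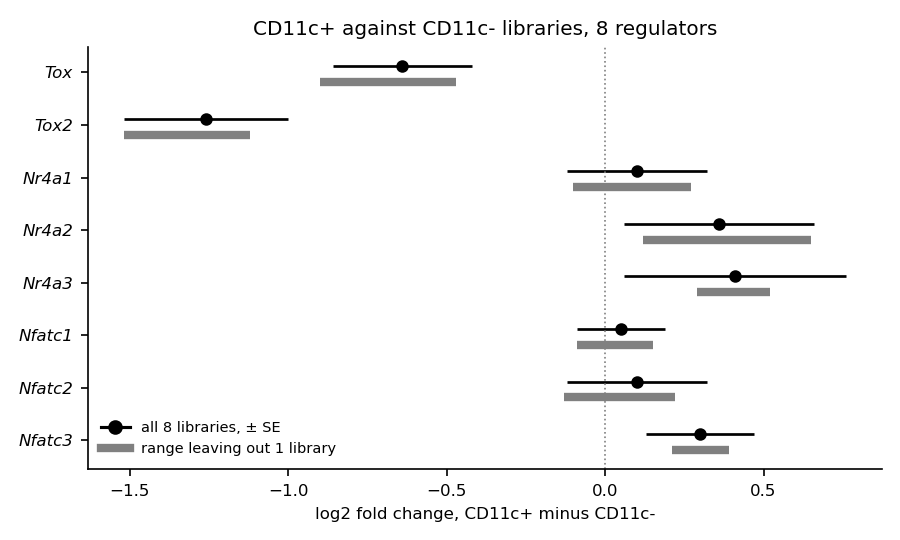
Log2 fold change, CD11c+ minus CD11c- (x axis), of the 8 genes from edgeR. Black points and lines give the value over all 8 libraries ± SE, and grey bars the range when 1 library at a time is left out. Both TOX genes stay below 0 in every such fit, at -1.52 to -1.12 for Tox2 and -0.90 to -0.47 for Tox, while the bars of Nr4a1, Nfatc1 and Nfatc2 cross 0. For Tox2 no single library could turn the sign, since its subsets do not overlap.

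The NR4A genes encode orphan nuclear receptors. Nr4a1 (NUR77), widely used as a reporter of T cell receptor signal, was at 129, 289.8, 185 and 245 CPM in CD11c+ replicates 1 to 4, against 167, 197, 188 and 241 CPM in CD11c- replicates 1 to 4. The CD11c+ libraries held both the lowest and the highest of the 8 values. The log2 fold change was 0.10 (SE 0.22), and -0.10 without CD11c+ replicate 2.

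Nr4a2 (NURR1) was at 165, 209, 91.6 and 109.6 CPM in CD11c+ replicates 1 to 4, against 68.5, 173, 115 and 90.6 CPM in CD11c- replicates 1 to 4. The subsets overlapped over most of their range. Its log2 fold change was 0.36 (SE 0.30), and -0.34 once CD11c+ replicates 1 and 2 and CD11c- replicate 1 were left out, the 3 libraries in which the fewest genes were detected.

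Nr4a3 (NOR1) was at 11.3, 11.5, 15.9 and 16.8 CPM in CD11c+ replicates 1 to 4, against 10.0, 13, 10.5 and 8.28 CPM in CD11c- replicates 1 to 4. It rested on 58 to 108 reads per library in CD11c+ and 47 to 93 in CD11c- cells, the fewest of the 8 genes. CD11c- replicate 2 lay above CD11c+ replicates 1 and 2, and the log2 fold change was 0.41 (SE 0.35). Per kilobase of exon the order in both subsets was Nr4a1 (79.2 CPM per kb ± 26.2 in CD11c+ and 74.0 ± 11.7 in CD11c-), Nr4a2 (38.4 ± 14.3 and 29.8 ± 12.1) and Nr4a3 (2.43 ± 0.501 and 1.83 ± 0.343).

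NR4A genes are known for promoters that answer to the factor CREB through cyclic AMP response elements. The 250 bases before the RefSeq start of each are shown because all 3 hold repeated letters that the Tox2 window lacks. Capitals mark TGACG or its reverse complement CGTCA, and in Nr4a2 also 1 NFAT core in its reverse complement (TTTCC). Their places in GRCm38.p6 are chr15:101266596-101266845 (plus strand) for Nr4a1, chr2:57124004-57124253 (minus strand) for Nr4a2 and chr4:48045055-48045304 (plus strand) for Nr4a3.

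Nr4a1: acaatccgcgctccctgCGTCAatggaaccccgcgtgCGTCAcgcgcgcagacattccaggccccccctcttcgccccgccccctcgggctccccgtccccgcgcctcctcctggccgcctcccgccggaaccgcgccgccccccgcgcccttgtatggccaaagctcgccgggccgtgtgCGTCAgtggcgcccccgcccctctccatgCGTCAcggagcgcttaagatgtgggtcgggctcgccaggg
Nr4a2: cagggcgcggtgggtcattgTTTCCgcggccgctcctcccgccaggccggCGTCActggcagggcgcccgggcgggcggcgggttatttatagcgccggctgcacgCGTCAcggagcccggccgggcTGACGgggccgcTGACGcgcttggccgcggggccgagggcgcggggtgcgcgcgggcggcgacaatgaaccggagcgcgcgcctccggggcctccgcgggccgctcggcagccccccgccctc
Nr4a3: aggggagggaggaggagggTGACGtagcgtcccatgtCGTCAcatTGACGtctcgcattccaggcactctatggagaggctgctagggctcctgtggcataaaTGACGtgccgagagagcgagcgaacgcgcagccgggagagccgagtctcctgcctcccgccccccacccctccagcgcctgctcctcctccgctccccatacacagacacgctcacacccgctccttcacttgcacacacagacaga

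Each of the 3 windows held 4 matches to TGACG on either strand, a count of at least 4 that was reached in 0.137% of 32851 windows. The windows were picked for these repeats and the cutoff is the count they hold, so that share is a description and no test. It covers windows of any base content, while G or C made up 74.4% of the Nr4a1, 80% of the Nr4a2 and 63.6% of the Nr4a3 window. None held the full element TGACGTCA, the AP-1 letters or AAAGGTCA.

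Among the NFAT genes, Nfatc1 encodes the form whose short isoform is induced by stimulation itself. It was at 272, 436, 348 and 329.7 CPM in CD11c+ replicates 1 to 4, against 321, 383, 322 and 314 CPM in CD11c- replicates 1 to 4. CD11c+ libraries again held the lowest and the highest value. The log2 fold change was 0.05 (SE 0.14), the smallest SE of the 8.

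Nfatc2, which encodes an NFAT protein present in resting T cells, was at 172, 106, 86.2 and 113 CPM in CD11c+ replicates 1 to 4, against 80.2, 107, 128 and 130.0 CPM in CD11c- replicates 1 to 4. CD11c+ replicate 1 was above all other libraries. Its log2 fold change was 0.10 (SE 0.22), and -0.13 without that library.

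Nfatc3, active from the thymus on, was at 165, 139, 165 and 117 CPM in CD11c+ replicates 1 to 4, against 135, 101, 140.3 and 98.3 CPM in CD11c- replicates 1 to 4. The CD11c+ values sat toward the top, with CD11c+ replicates 1 and 3 above all CD11c- libraries and CD11c+ replicates 2 and 4 between them. Its log2 fold change was 0.30 (SE 0.17). Per kilobase of exon Nfatc1 (46.6 ± 9.15 CPM per kb in CD11c+ and 45.1 ± 4.37 in CD11c-) stood above Nfatc3 (23.8 ± 3.73 and 19.2 ± 3.55) and Nfatc2 (14.3 ± 4.39 and 13.3 ± 2.78).

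Nfat5, which responds to salt stress, was at 27.6, 32.5, 43.1 and 27.9 CPM in CD11c+ replicates 1 to 4, against 29.7, 21.3, 26.3 and 18.1 CPM in CD11c- replicates 1 to 4, with overlap and a log2 fold change of 0.46 (SE 0.26). No read of Nfatc4 was counted, and Nfatc2ip, which encodes a protein that binds NFAT, was at 12.9 CPM ± 5.20 and 12.0 ± 1.96 (SD, n = 4 each).

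Within subsets, Pearson r between pairs of the 8 genes ran from -0.68 to 0.82. Correlations were taken over all 8 libraries after each subset's mean was removed from log2 CPM, so the subset difference does not enter, and were tested by exact permutation of libraries within subsets, two-sided, where 0.00174 is the smallest p possible. Of 28 pairs 0 passed after Benjamini-Hochberg adjustment over the 28, where a lone pair could pass only at that smallest p. The genes were also proposed with the levels per library in view, so these p-values describe the 8 libraries and nothing further is read from them. The permutation shuffled the 2 subsets separately. Whether same-numbered libraries share a source is not in the labels, and if they do, these p-values may be too small. Tox and Nr4a2 had the highest Pearson r, 0.82 (exact permutation p = 0.0226, adjusted p = 0.583), with a Spearman rho of 0.71 (exact permutation p = 0.0799, adjusted p = 0.821). Without replicate 2 of both subsets, the libraries farthest from the median of Tox, r was 0.42 over this narrower range of Tox, and with 1 library at a time left out it was 0.73 to 0.89.

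Tox and Nfatc1 had an r of 0.77 (exact permutation p = 0.0608, adjusted p = 0.583) and a rho of 0.52 (exact permutation p = 0.22, adjusted p = 0.821), and r was -0.19 without the same libraries. Replicate 2 was the highest of its subset for Tox, Nr4a2 and Nfatc1 in both CD11c+ and CD11c- cells. Tox and Tox2 had an r of -0.18 (exact permutation p = 0.708, adjusted p = 0.949) and a rho of 0.10 (exact permutation p = 0.84, adjusted p = 1), and r was 0.57 without the same libraries. In CD11c+ cells replicate 2 had the highest Tox and the lowest Tox2, while in CD11c- cells it had the highest of both.

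The NR4A genes had r of 0.16 for Nr4a1 and Nr4a2, 0.03 for Nr4a1 and Nr4a3 and -0.11 for Nr4a2 and Nr4a3, with exact permutation p from 0.752 to 0.953 and adjusted p of 0.949 and 0.953. The rho of these pairs were 0.33, -0.02 and 0.02 (exact permutation p from 0.441 to 0.983, adjusted p from 0.882 to 1), and r without the 2 farthest libraries 0.27, -0.29 and -0.54. The NFAT genes had r of -0.52 for Nfatc1 and Nfatc2, -0.32 for Nfatc1 and Nfatc3 and -0.07 for Nfatc2 and Nfatc3 (exact permutation p from 0.293 to 0.847, adjusted p from 0.844 to 0.949). Their rho were -0.52, -0.26 and -0.10 (exact permutation p from 0.189 to 0.84, adjusted p from 0.821 to 1), and r without the 2 farthest libraries -0.20, -0.18 and -0.33. Across families the lowest r was that of Nr4a1 and Nfatc3, -0.68 (exact permutation p = 0.0625, adjusted p = 0.583), with a rho of -0.67 (exact permutation p = 0.0799, adjusted p = 0.821) and an r of -0.87 without CD11c+ replicates 1 and 2. Beside these, the number of detected genes per library, centred the same way, had r from -0.66 with Nfatc3 to 0.58 with Nr4a3, and its part in the correlations was not tested.

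**Figure D3:**
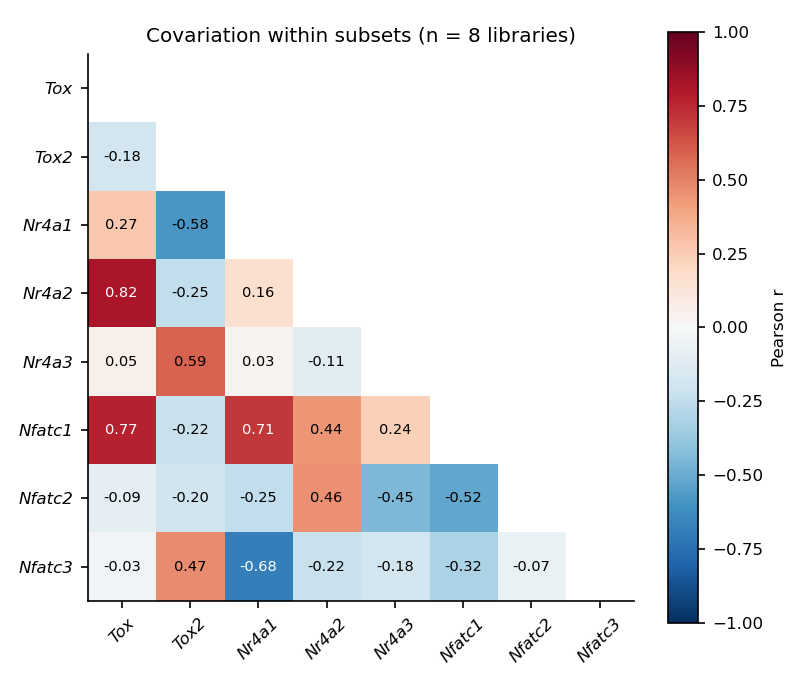
Pearson r for the 28 pairs of genes over 8 libraries, with log2 CPM taken as the deviation from the subset mean. Red marks positive and blue negative values, and the number in each cell is r. The highest cell is Tox with Nr4a2 at 0.82, the lowest Nr4a1 with Nfatc3 at -0.68, and the 3 NR4A pairs lie between -0.11 and 0.16.

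By the same measure 7515 tested genes of at least 10 CPM were ranked for likeness to Tox, Tox2 and Nr4a1, as a description over 8 libraries that share an amplification protocol, with no test. The highest r among 7515 genes over so few libraries are large in part by that selection. How large they would be for unrelated genes was not tested. Closest to Tox were Rnf2 (r = 0.980), which encodes a Polycomb ubiquitin ligase, the Ikaros family genes Ikzf2 (0.953) and Ikzf3 (0.946), Rbm25 (0.942) and Taf1d (0.938). Closest to Tox2 were the kinetochore gene Spc25 (r = 0.976), the autophagy genes Atg12 (0.975) and Atg3 (0.958), Pafah1b1 (0.973) and B2m (0.957). Closest to Nr4a1 were Tsen34 (r = 0.990), the folate carrier gene Slc19a1 (0.984), Esyt1 (0.982), Supt16h (0.981) and Dazap1 (0.979).

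Upstream of NFAT, the genes of calcium entry, calcineurin and the kinases that return NFAT to the cytoplasm were close to even. Of 29 genes 28 were tested, 17 with positive and 11 with negative log2 fold changes and a median of 0.06. By edgeR, DESeq2 and limma voom 0 passed, and 1 had an unadjusted p under 0.05, against 4.7% of all genes. That gene, named after its value was seen, was Orai1, the pore of the calcium channel, at 20.8 CPM ± 8.03 and 35.6 ± 4.53 (log2 fold change -0.78, SE 0.30, adjusted p = 0.99 by edgeR), with no overlap between subsets. Calm2, which encodes a calcium sensor (417 CPM ± 75.7 and 391 ± 39.8), the kinase gene Csnk1a1 (270.3 ± 28.5 and 277 ± 24.7) and Fkbp1a (267 ± 47.2 and 274 ± 25.2), whose product is the target of the calcineurin inhibitor tacrolimus, had log2 fold changes from -0.04 to 0.09.

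NFAT partners and targets likewise gave 0 calls by the 3 tools among 17 tested of 23, with a median of 0.04. At an unadjusted p under 0.05 by edgeR stood 1 higher and 1 lower, against 4.7% of all genes in either direction. Those, named after their values were seen, were Itch, a ubiquitin ligase of T cell anergy (98.4 CPM ± 28.0 and 68.2 ± 14.5), and Batf, an AP-1 partner (216 ± 19.4 and 269.5 ± 36.4). Ikzf1 (704 ± 76.8 and 761 ± 70.9), Dgka (499 ± 58.8 and 552 ± 84.5), a kinase that damps receptor signals, Junb (299.9 ± 50.2 and 330.2 ± 38.8) and Fasl (288 ± 23.9 and 273 ± 35.7) had log2 fold changes from -0.15 to 0.08. Il2, Il21, Il4, Egr3, Batf3 and Rnf128 were under the filter on low counts.

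Immediate-early genes, which stimulation switches on together with the NR4A genes, gave 0 calls by the 3 tools among 27 tested of 30, 17 with positive and 10 with negative log2 fold changes and a median of 0.11. At an unadjusted p under 0.05 stood Nfkbid (64.7 CPM ± 17.7 and 37.2 ± 6.72, log2 fold change 0.80, adjusted p = 0.856 by edgeR) and Ier3 (22.1 ± 5.44 and 35.6 ± 5.1, -0.69, adjusted p = 0.99), both without overlap and both named after their values were seen. Over all genes 4.7% stood under that unadjusted p by edgeR, in either direction. The abundant Nfkbia (358 ± 49.6 and 397 ± 61.5), Tnfaip3 (265 ± 28.2 and 297 ± 70.8) and Ier2 (245 ± 52.0 and 258 ± 30.8) had log2 fold changes from -0.17 to -0.08.

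The receptors that exhausted T cells carry gave 0 calls by the 3 tools among 13 tested, with a median of 0.00. At an unadjusted p under 0.05 by edgeR stood 1 higher and 3 lower, against 4.7% of all genes in either direction. The higher one was Havcr2, the gene of TIM-3 (310.2 CPM ± 71.8 and 228 ± 60.5), and the lower ones Tigit, Pdcd1 and Tnfrsf18, the gene of GITR (140.1 ± 15.3 and 194 ± 34.9), Havcr2 and Tnfrsf18 being named after their values were seen. Tigit was at 283 to 354 CPM in CD11c+ and 360.3 to 512 CPM in CD11c- libraries, without overlap (log2 fold change -0.45, SE 0.14, adjusted p = 0.923 by edgeR). Pdcd1, the gene of PD-1, was at 473 CPM ± 168 and 701 ± 154, Lag3 at 415 ± 172 and 381 ± 119 and Tnfrsf9, the gene of CD137, at 352 ± 112 and 352 ± 107. The summed level of the 13 receptors was highest in replicate 2 of both subsets, as Tox was. It was 3550.1 CPM against 2188 to 2775 in other CD11c+ libraries and 3673 CPM against 2476 to 2852 in other CD11c- libraries. Replicate 2 also held the highest sum in both subsets for NFAT partners and targets, at 3610.0 CPM in CD11c+ and 3373 CPM in CD11c-. The same held for immediate-early genes (3278 and 3014 CPM) and effector and memory transcription factors (3824 and 3251 CPM). It also held for the relatives and for the TOX, NR4A and NFAT genes summed. It did not hold for the calcium list or the follicular helper genes. A link between Tox and the receptors was not tested.

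Follicular helper genes, the other setting of Tox2, held 12 tested genes of 18, 4 with positive and 8 with negative log2 fold changes and a median of -0.30. Cxcr5, a chemokine receptor of follicles, was the 1 gene called, by all 3 tools, lower in CD11c+ cells (28.1 CPM ± 12.5 and 124 ± 32.8, log2 fold change -2.14). Its adjusted p was 0.023 by edgeR, 7.27e-10 by DESeq2 and 0.00668 by limma voom. With 1 library left out its adjusted p by edgeR ran from 0.00377 to 0.132, and the edgeR call was lost without CD11c+ replicate 1, 3 or 4 or CD11c- replicate 1, 3 or 4. Tcf7, the gene of TCF-1, was at 55.4 ± 25.1 and 111 ± 43.6 (log2 fold change -1.01, SE 0.33), Sh2d1a at 289.5 ± 78.3 and 382 ± 58.6, Slamf6 at 214 ± 34.4 and 262 ± 27.7 and Icos at 67.8 ± 23.7 and 66.2 ± 4.43, and none of these 4 passed by any of the 3 tools. At an unadjusted p under 0.05 by edgeR stood 0 higher and 3 lower, Cxcr5, Tcf7 and Sh2d1a, against 4.7% of all genes in either direction. Tox2 and Cxcr5 were both without overlap and both lower in CD11c+ libraries. Within subsets the libraries were mixed. CD11c+ replicate 2 had the lowest Tox2 (17.5 CPM) and the highest Cxcr5 (45.7 CPM) of its subset. CD11c- replicate 2 had the highest Tox2 (73.1 CPM) and the lowest Cxcr5 (94.5 CPM). CD11c- replicate 3 was high in both (71.5 and 156 CPM) and CD11c- replicate 4 low in both (50.0 and 97.4 CPM). A link between the 2 genes was not tested.

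Among 18 effector and memory transcription factors, 13 had positive log2 fold changes and the median was 0.12. Id2, which supports effector cells, was called higher by all 3 tools (625 CPM ± 106 and 315 ± 29.6, log2 fold change 0.99). Its adjusted p was 0.023 by edgeR, 7.27e-10 by DESeq2 and 0.00668 by limma voom. With 1 library left out the adjusted p by edgeR ran from 0.022 to 0.108 and passed only without CD11c+ replicate 2 or 4. Tbx21, the gene of T-bet (349 ± 26.3 and 227 ± 19.0, 0.62, SE 0.11), was called higher by DESeq2 and limma voom. Zeb2 (43.7 ± 12.0 and 16.3 ± 4.74, 1.42, SE 0.30) was called higher by DESeq2 alone of the 3 tools. Of all 10073 tested genes edgeR called 3 higher and limma voom 14. DESeq2 called 22 higher of the 6947 genes to which it gave an adjusted p. Bhlhe40 (400.4 to 765 CPM in CD11c+ and 396 to 685 CPM in CD11c- libraries), Ikzf3 (408 ± 29.1 and 419 ± 12.2), Stat3 (375 ± 55.5 and 371 ± 20.6) and Runx3 (252 ± 22.6 and 249 ± 21.0) did not pass by any of the 3 tools.

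**Figure D4:**
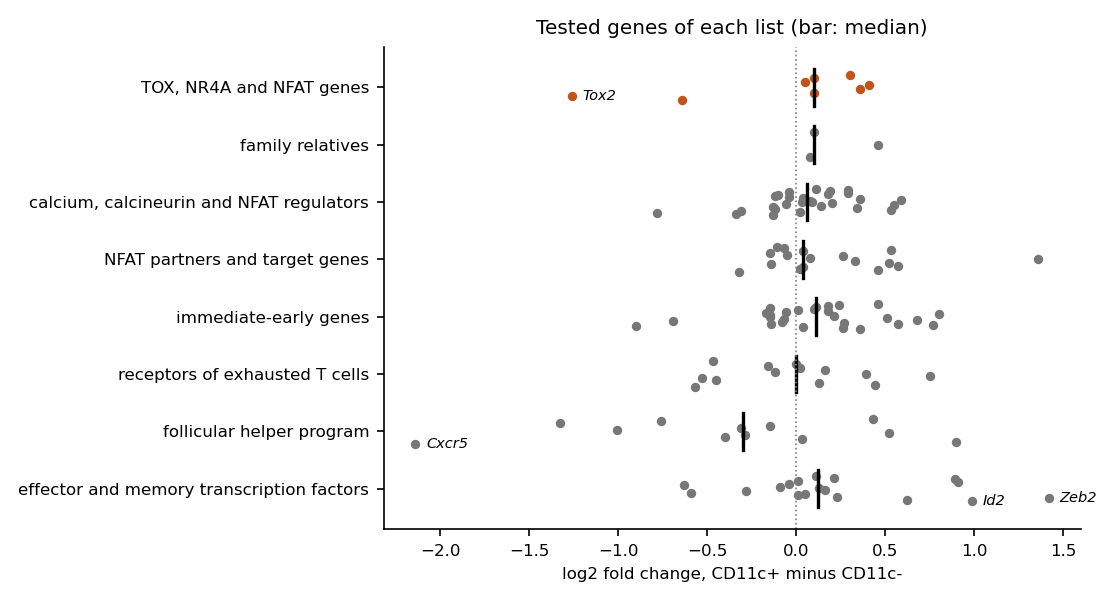
Log2 fold change, CD11c+ minus CD11c- (x axis), of every tested gene of each list, with 1 point per gene and a black bar at the list's median. The 8 regulators (top, orange) have a median of 0.10 with Tox2 at -1.26, and the follicular helper list has the lowest median, -0.30, with Cxcr5 at -2.14.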

How the data were processed

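Libraries were built by a SMART-seq2 variant with 10 to 12 preamplification cycles and sequenced as 50 bp single reads, per the labels' protocols. The submitters' processing notes name mm9, bcl2fastq, HTSeq and TopHat2 2.0.8b. For annotation and strand setting: not given in the sources used here, so sense and antisense genes cannot be told apart. What the authors deposited is 1 table of raw counts per library. Its 5 summary rows were left out. Unassigned reads made up 65.1% ± 1.66 of those placed once (SD, n = 8).

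The test was edgeR 4.0.16 (R 4.3.3; filterByExpr, TMM, glmQLFit, glmQLFTest) with p-values adjusted by Benjamini-Hochberg over 10073 genes. SE is the log2 fold change over the root of F. Libraries of a subset differed by a chi-square of at least 9.43 per degree of freedom, so none was treated as a copy of another. This does not show that they came from separate mice. Correlations used log2 CPM with a prior count of 2. Alternatives were RLE factors, library size alone, other filters, DESeq2 1.42.0, limma 3.58.1 voom, legacy=FALSE, a replicate block and libraries left out.

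The members, lists and tests were chosen with earlier results of these data known. Named genes were the 8 members, their relatives, per list those called by any tool plus up to 4 of highest level, and the 5 genes most like Tox, Tox2 and Nr4a1, passing over unnamed gene models. One result under this rule is not reported here. In data simulated for this comparison over 10073 genes, the share that edgeR called was 6% at a simulated fold change of 1.5, 34.8% at 2 and 74% at 4. In each of 5 simulations 200 genes of any level were changed, and libraries were drawn independently of replicate number. These shares are thus averages over genes and not the shares for the 8 genes.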

Additional observations from a re-analysis of the deposited data

Results flagged for a closer look

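In 76 subset groups of 4 libraries, covering the 8 genes and the list genes named above, 3 had a library set far from the other 3, and chance gives about 1 in 20. Tox in CD11c+ replicate 2 was at 413 CPM, with 220.3 to 250.1 CPM in the other CD11c+ libraries. Nfatc1 in CD11c- replicate 2 was at 383 CPM, with 314 to 322 CPM in the other CD11c- libraries. Ier2 in CD11c- replicate 3 was at 212 CPM, with 269 to 276 CPM in the other CD11c- libraries.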

How the results depend on the processing

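Of 136 log2 fold changes of the 8 genes under 17 alternatives each, 10 changed sign, all in Nr4a1, Nr4a2, Nfatc1 or Nfatc2, and 2 moved by more than the spread between libraries, Nr4a2 (-0.34) and Nfatc2 (-0.30) once the 3 libraries lowest in detected genes were left out. Leaving out 1 library put Tox between -0.90 and -0.47 and Tox2 between -1.52 and -1.12, and both stayed negative under all 17. The 8 genes were chosen with this difference known, so the kept sign is no support for it. Of the 8 genes, 1 was called by DESeq2 and 1 by limma voom, Tox2 in both. By edgeR 0 were called with all libraries and 0 in the fits without 1 library. DESeq2 and limma voom were not run with libraries left out. Over all genes edgeR called 3 higher and 2 lower. DESeq2 called 22 higher and 10 lower, limma voom 14 and 5, and the threshold of 0.01 left 1 and 0. Higher calls were 10 with no filter, 6 with at least 5 CPM in 4 libraries, 9 with legacy=FALSE, and 9 without those 3 libraries. Leaving out 1 library gave 1 to 4 higher and 0 to 2 lower. The cause of these moves was not tested.

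With the replicate number as a block, 11 genes were called higher and 2 lower, none of them among the 8. Same-numbered libraries had correlated deviations over all tested genes (r = 0.096, 0.167, 0.119 and 0.190 for numbers 1 to 4), each library closest to its own number, which is a hint of pairing from the data and not from the design. Of the 28 gene pairs 0 passed under RLE factors, library size, a prior count of 0.5 or Spearman's rho. Without any 1 library 0 passed too, but there 0.00694 is the smallest p possible and no lone pair could pass, so this says nothing about stability. A paired form of these correlations, over 4 differences, was not run. Nr4a3 at 47 to 108 reads per library is the gene most limited by depth.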
